A study of Rattus norvegicus with 11 samples.

Results

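The clearance of a brain hematoma depends on phagocytes that bind, engulf and digest extravasated red cells, dying neurons and oxidized lipid. The genes described here are 10 surface receptors and bridging ligands of that uptake, taken from the count table by exact gene symbol: the scavenger receptors Cd36, Msr1, Marco, Mrc1 and Stab1, the TAM receptor tyrosine kinases Mertk, Axl and Tyro3, and the TAM ligands Gas6 and Pros1. All 10 symbols were found among the 30560 genes of the table, and 9 of them passed the filter on low counts that left 15742 genes for testing. The exception was Marco, which had 0 counts in every rat.

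Bulk poly(A) RNA of the striatum was sequenced at day 3 from 11 adult male Sprague-Dawley rats, with a single library per rat. Common hemorrhage (IC, n = 3) was made by injecting 0.2 U of bacterial collagenase VII-S in 1.0 μL into the right striatum under isoflurane, and severe hemorrhage (IS, n = 3) by 0.6 U in 3.0 μL. The third hemorrhage group (IS-HA, n = 3) received the IS dose and had its hematoma aspirated through a guide catheter 6 h later. Normal rats (n = 2) received neither collagenase nor aspiration, so no group carried a needle track without hemorrhage. Because collagenase itself opens vessel walls, the enzyme, the injected volume and the blood cannot be told apart in these groups. P-values measure the spread between these rats.

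Library sizes ranged from 6701301 to 18817645 counts assigned to genes, and the smallest library belonged to IS-HA replicate 2. That rat also stood apart in its immune markers: 6 neutrophil markers summed to 860 TPM (transcript abundance, counts per gene length scaled to the same total in each rat) against 168 and 216 TPM in the other IS-HA rats, and 6 monocyte markers to 874 TPM against 297 and 441 TPM. Results that depend on it are given with and without it. The labelled tissue carried its defining transcripts, since 6 striatal neuron markers, among them Drd1, Drd2 and Ppp1r1b, were detected in every group, at 5694 to 6148 TPM in Normal, 2559 to 5218 TPM in IC, 1274 to 3326 TPM in IS and 1285 to 2864 TPM in IS-HA. In bulk RNA, fewer cells of a type and less RNA per cell cannot be told apart.

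Scavenger receptors recognize modified lipoproteins, glycans and cell debris, and several are carried mainly by macrophages and microglia. Efferocytosis, the removal of apoptotic cells, starts when phosphatidylserine appears on the outer face of a dying cell. Gas6 and protein S (Pros1) bind this lipid at one end and the TAM receptors at the other, and so tether the dying cell to the phagocyte. Gas6 binds all TAM receptors, whereas protein S acts on Tyro3 and Mertk. In the brain, Mertk and Axl are known from microglia and other phagocytes, Mertk also from astrocytes, and Tyro3 mainly from neurons.

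Promoter windows, running from 250 bases before to 50 bases after the start of a gene in RefSeq on rat build GRCr8, were found for 9 of the 10 genes. For 5 of the 9 (Cd36, Marco, Mertk, Tyro3 and Pros1), the window lay inside the outermost bounds of the annotated gene, so that it held no base upstream of the gene. The windows were searched on both strands for the PU.1 core GAGGAA, the AP-1 site TGACTCA and the nuclear receptor site AGGTCA, because the members with the largest differences are macrophage genes and PU.1 is the macrophage lineage factor. GAGGAA was found in 5 of the 9 windows (Cd36, Marco, Mrc1, Stab1 and Axl) and in 27.6% of all 33469 promoter windows, and 3 of these 5 (Mrc1, Stab1 and Axl) held it outside the annotated gene. TGACTCA was found in 0 of the 9 windows and in 4.63% of all windows. AGGTCA was found in 1 of the 9 windows, that of Gas6, and in 16.2% of all windows. The stretches shown are those with the most bases upstream of the annotated gene, Mrc1 (250 bases), Stab1 (235) and Gas6 (250). That of Axl (136 bases) was shorter and is not shown. Only bases upstream of the annotated gene are printed, 5′ to 3′ on the strand of the gene, with the matched letters in capitals.
Mrc1, chr17:82157475-82157724 (plus strand): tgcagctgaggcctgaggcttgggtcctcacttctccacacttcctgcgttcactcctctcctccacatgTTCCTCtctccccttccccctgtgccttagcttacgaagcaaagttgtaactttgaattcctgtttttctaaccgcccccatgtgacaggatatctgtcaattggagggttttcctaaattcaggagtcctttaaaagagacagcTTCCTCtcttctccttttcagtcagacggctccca
Stab1, chr16:6367375-6367609 (minus strand): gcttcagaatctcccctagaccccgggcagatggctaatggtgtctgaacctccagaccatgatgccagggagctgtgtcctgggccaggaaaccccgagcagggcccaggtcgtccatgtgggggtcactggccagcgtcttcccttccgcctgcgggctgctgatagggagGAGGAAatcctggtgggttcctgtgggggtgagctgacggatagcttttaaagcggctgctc
Gas6, chr16:82747426-82747675 (plus strand): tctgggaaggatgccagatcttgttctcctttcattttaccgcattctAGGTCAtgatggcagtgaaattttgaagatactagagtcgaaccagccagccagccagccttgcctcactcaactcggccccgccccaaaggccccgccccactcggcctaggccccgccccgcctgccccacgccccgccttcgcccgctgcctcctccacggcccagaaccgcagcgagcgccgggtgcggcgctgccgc
The Mrc1 stretch held GAGGAA at 2 places, both read on the opposite strand as TTCCTC, and the Stab1 stretch held it at 1 place. The Gas6 stretch held none and carried its single AGGTCA upstream of GC-rich sequence. A match of letters is a description and was not tested as a binding site.

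All 4 detected scavenger receptors were higher in every hemorrhage rat than in every Normal rat, and Msr1, Mrc1 and Stab1 passed the test in all 3 hemorrhage groups. A gene was called at an adjusted p under 0.05 by edgeR's quasi-likelihood test, adjusted over all 15742 genes, with a log2 fold change of at least 1 either way. Over all genes tested, 10.9% were called higher in IC, 18.8% in IS and 15.1% in IS-HA, and 32.4%, 37.6% and 31.7% had every rat of these groups above both Normal rats. Log2 fold changes of this test are on the scale of normalized counts and carry an approximate standard error (SE). The 3 comparisons with Normal share the same 2 Normal rats.

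Msr1 (ENSRNOG00000012779), the macrophage scavenger receptor that takes up oxidized lipoproteins, was almost absent from Normal striatum. Its level was 0.333 and 0.341 TPM in the Normal rats, 13.4, 26.9 and 20.5 TPM in IC replicates 2, 3 and 4, 27.4, 26.7 and 39.6 TPM in IS replicates 2, 3 and 4, and 20.0, 21.4 and 36.9 TPM in IS-HA replicates 1, 2 and 3. The hemorrhage groups overlapped one another and none came near Normal. The log2 fold change against Normal was 5.81 ± 0.51 (SE) in IC (edgeR adjusted p = 0.000115), 6.52 ± 0.52 in IS (adjusted p = 3.13e-05) and 6.20 ± 0.52 in IS-HA (adjusted p = 6.44e-05). Each Normal rat gave only 5 Msr1 counts, so the size of these folds rests on a low base.

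Mrc1 (ENSRNOG00000018251) encodes the mannose receptor CD206, a lectin of border macrophages and of alternatively activated macrophages. It stood at 1.61 and 1.69 TPM in the Normal rats, at 8.84, 14.6 and 9.91 TPM in IC, at 26.9, 15.6 and 36.1 TPM in IS, and at 13.8, 15.3 and 17.7 TPM in IS-HA. All IS rats were above all IC rats, while the lowest IS rat lay inside the range of IS-HA. Mrc1 rose against Normal by a log2 fold change of 2.69 ± 0.38 (SE) in IC (edgeR adjusted p = 0.000925), 4.01 ± 0.41 in IS (adjusted p = 6.32e-05) and 3.23 ± 0.39 in IS-HA (adjusted p = 0.000291).

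Stab1 (ENSRNOG00000018434) encodes stabilin-1, a receptor of macrophages and sinusoidal endothelium that binds phosphatidylserine and acetylated lipoproteins. Its level was 4.59 and 3.99 TPM in the Normal rats, 18.7, 32.1 and 22.3 TPM in IC, 39.1, 37.7 and 60.1 TPM in IS, and 22.1, 18.8 and 29.4 TPM in IS-HA. The IS rats lay above all IC rats and all IS-HA rats, and IC and IS-HA overlapped. Stab1 rose against Normal by a log2 fold change of 2.44 ± 0.32 (SE) in IC (edgeR adjusted p = 0.000575), 3.44 ± 0.33 in IS (adjusted p = 5.28e-05) and 2.42 ± 0.32 in IS-HA (adjusted p = 0.000432).

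Cd36 (ENSRNOG00000005906), the class B receptor for oxidized lipids and red cell debris, was a rare transcript in every group. Normal rats gave 1 and 0 counts, IC rats 4, 58 and 32, IS rats 23, 14 and 84, and IS-HA rats 70, 2 and 7. In TPM this was 0.0199 and 0 in Normal, 0.094, 1.07 and 0.968 in IC, 0.715, 0.415 and 3.59 in IS, and 1.64, 0.0895 and 0.241 in IS-HA. The range inside each hemorrhage group was wider than the difference between any pair of their means. With the counts of a group pooled, Cd36 was 68.5 times higher than Normal in IC (95% exact interval 12.0 to 2733), 135 times in IS (23.8 to 5376) and 80.3 times in IS-HA (14.0 to 3213), intervals that cover counting error only. Single rats gave most of these counts in every hemorrhage group. Without IS replicate 4 the fitted log2 fold change in IS went from 6.91 to 5.38 (edgeR adjusted p = 0.0436). Without IS-HA replicate 1 that in IS-HA went from 5.64 to 3.70 (adjusted p = 0.206). The value in IC went from 5.70 to 5.29 without IC replicate 3 (adjusted p = 0.179) and to 5.36 without IC replicate 4 (adjusted p = 0.148). By edgeR the call was made in IS (adjusted p = 0.0149) but not in IC (adjusted p = 0.0755) or IS-HA (adjusted p = 0.0556). The IS call rested on both Normal rats, since the adjusted p was 0.0646 without Normal replicate 1 and 0.107 without Normal replicate 3. It was also lost in limma on log2(TPM + 1), with an adjusted p of 0.0939. In IC and IS-HA, Cd36 passed without IS-HA replicate 2 (adjusted p = 0.0497 and 0.0471), without IS replicate 4 (0.0451 and 0.034) and without IC replicate 2 (0.0495 and 0.0455). It moved away from the threshold without Normal replicate 1 (0.193 and 0.151) or Normal replicate 3 (0.358 and 0.26).

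Marco (ENSRNOG00000049303), a receptor of lung and lymphoid macrophages that binds bacteria and particles, was not detected. A count of 0 allows at most 3 counts, which is 0.159 CPM (counts scaled to a fixed library total) in the largest library and 0.448 CPM in the smallest.

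**Figure D1:**
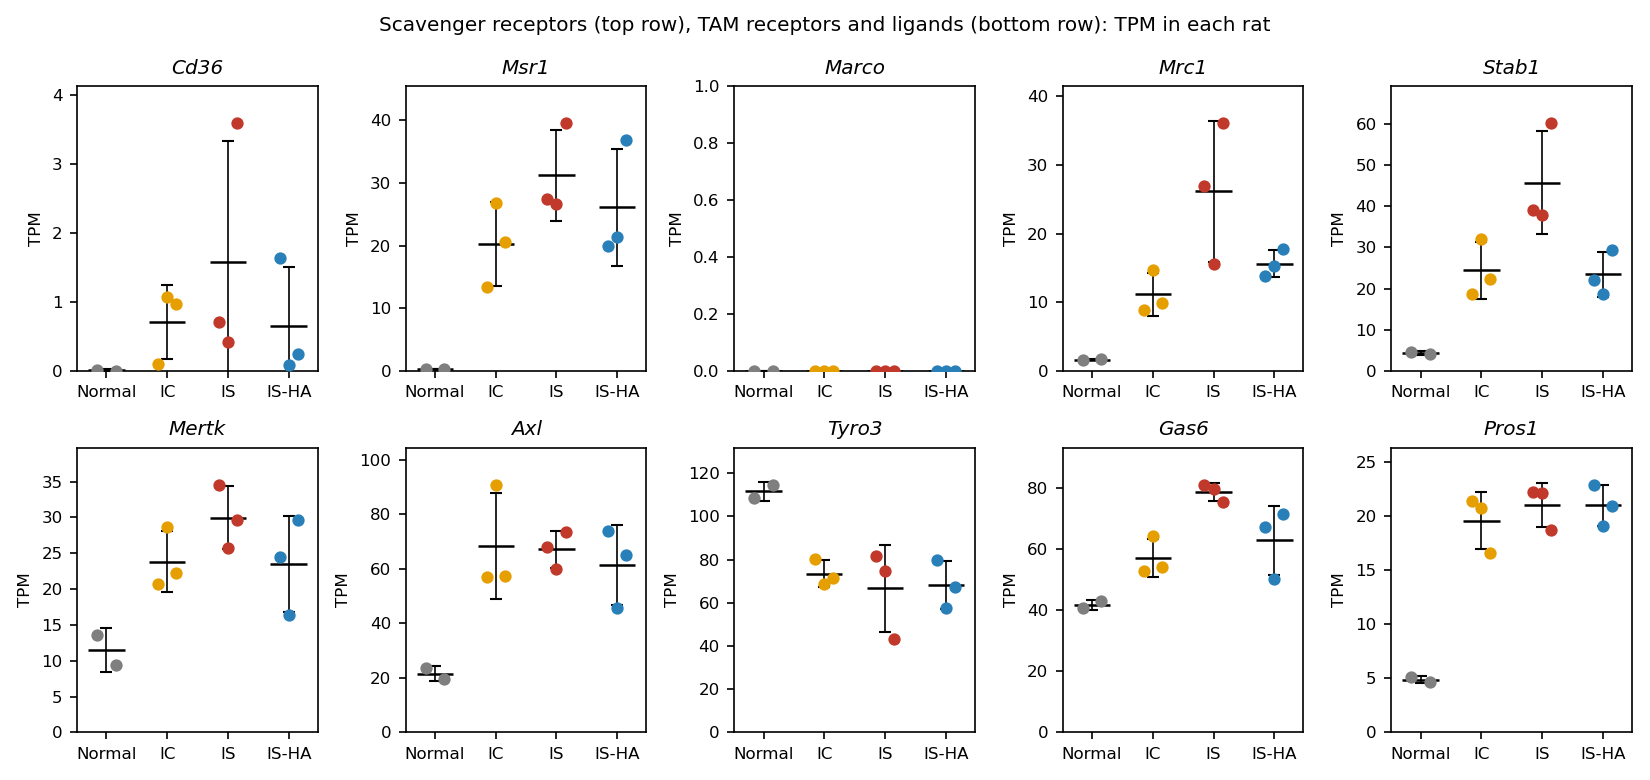
Level of each of the 10 genes in TPM (vertical axis, separate linear scale from 0 per panel) in the Normal, IC, IS and IS-HA rats. Each point is a rat, the horizontal bar is the group mean and the whiskers are the SD. Msr1, Mrc1 and Stab1 rats with hemorrhage all lie above Normal, Tyro3 is the gene whose hemorrhage rats all lie below Normal, and Marco is at 0 in all 11 rats.

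Of the TAM receptors, Axl passed the test in all 3 hemorrhage groups and Mertk in IS, while Tyro3 was lower in every hemorrhage rat than in both Normal rats without reaching the fold cutoff. Axl (ENSRNOG00000020716) is the TAM receptor that is induced in inflamed tissue and binds Gas6. It stood at 23.5 and 19.7 TPM in the Normal rats, at 56.9, 90.8 and 57.4 TPM in IC, at 68.0, 60.0 and 73.4 TPM in IS, and at 73.9, 45.4 and 65.0 TPM in IS-HA. Its hemorrhage groups overlapped one another. The log2 fold change against Normal was 1.59 ± 0.24 (SE) in IC (edgeR adjusted p = 0.00116), 1.65 ± 0.24 in IS (adjusted p = 0.000423) and 1.47 ± 0.24 in IS-HA (adjusted p = 0.00138).

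Mertk (ENSRNOG00000017319) is the TAM receptor of resting tissue phagocytes. Its level was 13.6 and 9.35 TPM in the Normal rats, 20.7, 28.6 and 22.2 TPM in IC, 34.6, 25.7 and 29.6 TPM in IS, and 24.4, 16.4 and 29.6 TPM in IS-HA. All hemorrhage rats were above both Normal rats, with 16.4 TPM of IS-HA replicate 2 as the value nearest to them. Mertk rose in IS by a log2 fold change of 1.38 ± 0.25 (SE, edgeR adjusted p = 0.0013). In IC and IS-HA the log2 fold changes were 0.98 ± 0.24 (adjusted p = 0.0188) and 0.98 ± 0.24 (adjusted p = 0.0124), just under the fold cutoff of 1. Without IS-HA replicate 2 the IS-HA value was 1.08 ± 0.24 (adjusted p = 0.00766), past the cutoff. Leaving out Normal replicate 1, the Normal rat with the higher Mertk level, also put IC (1.36, adjusted p = 0.0204) and IS-HA (1.35, adjusted p = 0.015) past it, and leaving out IC replicate 2 did so for IC (1.09, adjusted p = 0.0199). Without Normal replicate 3 the values were 0.68 in both IC (adjusted p = 0.219) and IS-HA (adjusted p = 0.145), and without IC replicate 3 the IC value was 0.87 (adjusted p = 0.0712).

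Tyro3 (ENSRNOG00000058586), the TAM receptor most abundant in neurons, was the most abundant of the 10 genes in Normal striatum. It stood at 108 and 115 TPM in the Normal rats, at 80.4, 68.5 and 71.6 TPM in IC, at 81.5, 74.9 and 43.5 TPM in IS, and at 80.0, 57.8 and 67.5 TPM in IS-HA. The lowest value, in IS replicate 4, belonged to the rat with the lowest summed level of 6 neuron markers (337 TPM against 2152 and 3037 TPM in Normal). The part of neuronal RNA in the Tyro3 difference was not tested. The log2 fold change was -0.65 ± 0.22 (SE) in IC (edgeR adjusted p = 0.0591), -0.74 ± 0.22 in IS (adjusted p = 0.0159) and -0.72 ± 0.22 in IS-HA (adjusted p = 0.0278). Tyro3 would thus count as lower in IS and IS-HA if the adjusted p alone were used, as 24.2% and 12.1% of all genes would (4.64% in IC). For IS-HA this was lost when edgeR scaled by library size alone (adjusted p = 0.067) and in limma (adjusted p = 0.0586). In IC, DESeq2 gave an adjusted p of 0.0175.

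Of the ligands, Pros1 passed the test in all 3 hemorrhage groups and Gas6 in none. Pros1 (ENSRNOG00000048723), the anticoagulant protein S, stood at 5.10 and 4.69 TPM in the Normal rats, at 21.4, 20.8 and 16.6 TPM in IC, at 22.2, 22.2 and 18.7 TPM in IS, and at 22.9, 19.1 and 21.0 TPM in IS-HA. It was the member with the smallest spread among the hemorrhage rats, with the highest and the lowest of the 9 rats only 1.30-fold apart in normalized CPM. Pros1 rose by a log2 fold change of 1.93 ± 0.18 (SE) in IC (edgeR adjusted p = 0.000126), 2.11 ± 0.19 in IS (adjusted p = 3.57e-05) and 2.08 ± 0.19 in IS-HA (adjusted p = 7.89e-05).

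Gas6 (ENSRNOG00000018233), the ligand with the highest affinity for Axl, was already present in Normal striatum at 40.7 and 43.0 TPM. It stood at 52.9, 64.2 and 54.3 TPM in IC, at 81.2, 79.9 and 75.6 TPM in IS, and at 67.2, 50.2 and 71.5 TPM in IS-HA. The IS rats lay above all other rats and within 5.63 TPM of each other. The log2 fold change against Normal was 0.39 ± 0.14 (SE) in IC (edgeR adjusted p = 0.0832), 0.93 ± 0.15 in IS (adjusted p = 0.000713) and 0.56 ± 0.15 in IS-HA (adjusted p = 0.0154), all under the fold cutoff.

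In all, 5 of the 9 tested members were called higher in IC than in Normal (Msr1, Mrc1, Stab1, Axl and Pros1), beside 10.9% of all tested genes. In IS, 7 of 9 were called higher, the same 5 with Cd36 and Mertk, beside 18.8% of all tested genes. In IS-HA, the same 5 genes as in IC were called, beside 15.1% of all tested genes. By edgeR, DESeq2 and limma, 0 of the 9 were called lower in IC, IS or IS-HA. Of all genes, edgeR called 2.66%, 17% and 7.71% lower in these groups, DESeq2 4.9%, 17.9% and 9.67%, and limma 1.01%, 14% and 5.36%. At an unadjusted p under 0.05, 1 member, Tyro3, was lower in each comparison, beside 14.5%, 28% and 19.1% of all genes. In normalized CPM, 8 of 9 members were higher and Tyro3 was lower in every rat of IC than in every Normal rat, while 32.4% of all genes had all rats higher and 31.3% all rats lower. The same 8 and 1 held in IS, beside 37.6% and 36.9% of all genes, and in IS-HA, beside 31.7% and 29.2%. The median log2 fold change of the 9 members was 1.93 in IC, 2.11 in IS and 2.08 in IS-HA, against 0.0033, 0.018 and 0.056 over all genes tested. Scaling by library size alone moved the median of all genes to 0.14, 0.15 and 0.18 and the share of higher calls among all calls from 80.4%, 52.5% and 66.3% to 90.6%, 60.7% and 77.3%, and left all 9 directions against Normal as they were.

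**Figure D2:**
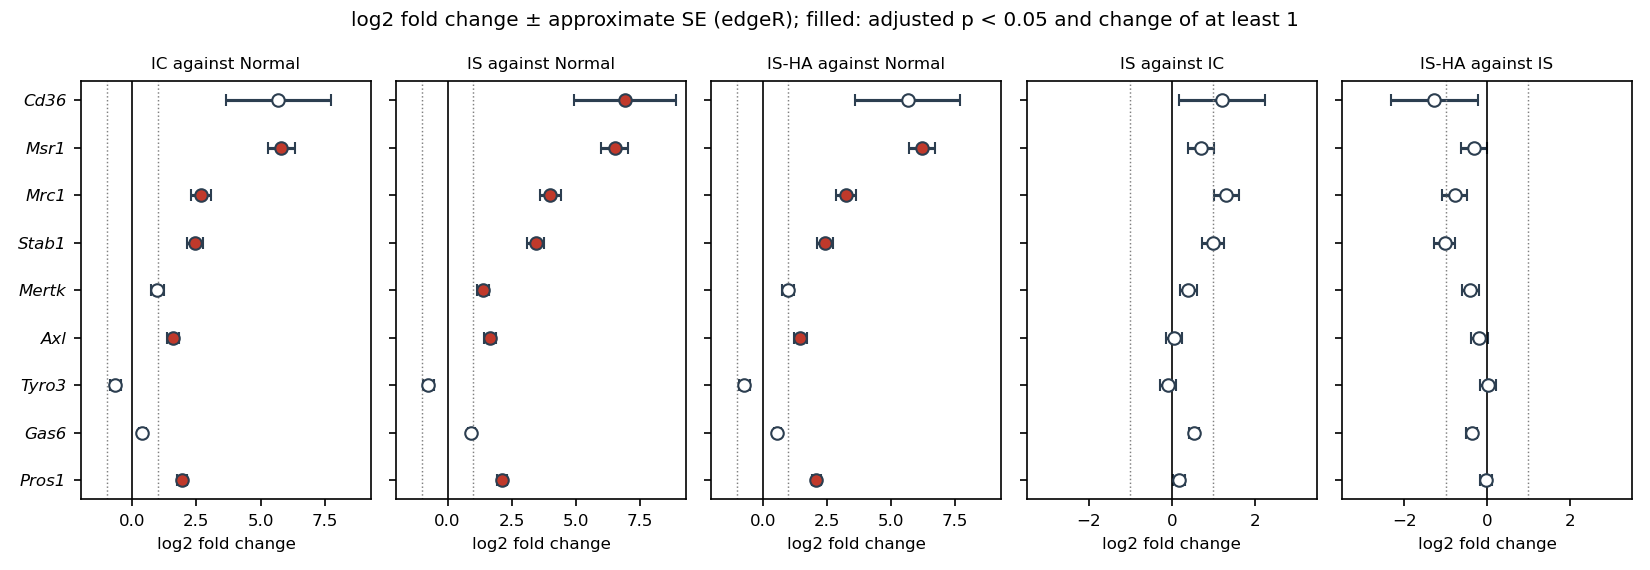
Log2 fold change (horizontal axis) of the 9 tested genes in the 5 comparisons, with bars for the approximate SE; filled points passed an adjusted p of 0.05 with a change of at least 1, marked by the dotted lines. Filled points number 5, 7 and 5 in the comparisons of IC, IS and IS-HA with Normal, and 0 in IS against IC and in IS-HA against IS, and the Cd36 bars are the widest.

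The comparison of IS with IC asks whether the larger hemorrhage changed these genes further. With all 11 rats in the fit, 0 of the 9 members and 0 of the 15742 genes were called by edgeR (0% in either direction). At an unadjusted p under 0.05, 4 members were higher and 0 lower, where 10.5% of all genes were higher and 11.7% lower. The 4 were Mrc1, with a log2 fold change of 1.32 ± 0.30 (SE, edgeR adjusted p = 0.146), Stab1 (1.00 ± 0.26, adjusted p = 0.147), Gas6 (0.54 ± 0.13, adjusted p = 0.147) and Msr1 (0.71 ± 0.31, adjusted p = 0.214). The receptors Axl (0.06 ± 0.20) and Tyro3 (-0.09 ± 0.20) and the ligand Pros1 (0.18 ± 0.15) were close to 0, and Mertk stood at 0.40 ± 0.21. Cd36 was at 1.22 ± 1.04 and changed sign to -0.33 without IS replicate 4.

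In normalized CPM, 6 of the 9 members (Msr1, Mrc1, Stab1, Mertk, Gas6 and Pros1) were higher in all 3 IS rats than in all 3 IC rats, where 19.2% of all genes were. In TPM, only Mrc1, Stab1 and Gas6 were, while Msr1, Mertk and Pros1 overlapped between IS and IC. The share of all genes without overlap in TPM was not computed, so the TPM count has no background beside it. DESeq2's Wald test called Mrc1 (adjusted p = 0.00606) and Stab1 (adjusted p = 0.0164) higher, where it called 1.63% of all genes higher and 2.2% lower, and limma on log2(TPM + 1) called 0 members and 0% of genes. In the edgeR fit whose shared spread was estimated without IS-HA replicate 2, 2.19% of genes were called higher and 3.87% lower, and Mrc1 was among the higher (1.32 ± 0.29, adjusted p = 0.027). Stab1 (1.00, just under the cutoff before rounding, adjusted p = 0.0349) and Gas6 (0.54, adjusted p = 0.025) then passed the adjusted p but not the fold cutoff. Without IS replicate 4, the values fell to 0.95 for Mrc1 (adjusted p = 0.437) and 0.69 for Stab1 (adjusted p = 0.448). This rat had the highest normalized CPM of all 9 hemorrhage rats for 5 of the 9 members (Cd36, Msr1, Mrc1, Stab1 and Gas6), and the highest summed microglia and macrophage markers (3116 TPM against 1850 and 1892 TPM in the other IS rats). It was also highest for the 6 border macrophage markers (1220 TPM against 362 and 593 TPM). The part of macrophage number in these differences was not tested.

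The comparison of IS-HA with IS asks what aspiration of the severe hematoma changed. IS-HA rats were also anesthetized again and had a catheter passed through the hematoma, which is not described for IS rats. Removal of blood and this added procedure cannot be told apart. By edgeR, 0 of the 9 members were called in either direction, where 0.00635% of all genes (a single gene) were called higher and 0% lower. At an unadjusted p under 0.05, 0 members were higher and 3 lower, where 5.58% of all genes were higher and 3.36% lower. They were Stab1 (-1.02 ± 0.26, SE, edgeR adjusted p = 0.499), Mrc1 (-0.78 ± 0.30, adjusted p = 0.543) and Gas6 (-0.37 ± 0.13, adjusted p = 0.54). Stab1 and Gas6 were lower in all 3 IS-HA rats than in all 3 IS rats in normalized CPM, where 5.42% of all genes were. In TPM the Stab1 means were 45.7 ± 12.5 in IS and 23.4 ± 5.43 in IS-HA (SD, n = 3 each). The Gas6 means were 78.9 ± 2.95 TPM and 63.0 ± 11.3 TPM (SD, n = 3 each).

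DESeq2's Wald test called Stab1 lower in IS-HA (adjusted p = 0.0455), where it called 0.28% of all genes higher and 0.121% lower, and limma called 0 members. Without IS-HA replicate 2, Stab1 was at -0.99 ± 0.29 (edgeR adjusted p = 0.0668) and 0 members were called, while 2.48% of genes were called higher and 0.541% lower. Without IS replicate 4, Stab1 was at -0.71 and Mrc1 at -0.41, both with an adjusted p of 0.999. The remaining members were Msr1 at -0.31 ± 0.31, Mertk at -0.40 ± 0.21, Axl at -0.18 ± 0.20, Pros1 at -0.03 ± 0.15, Tyro3 at 0.02 ± 0.20 and Cd36 at -1.28 ± 1.05. Cd36 turned to 0.27 without IS replicate 4 and was at -0.84 without IS-HA replicate 2.

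Since TPM is per length, levels of the members can be set side by side. The TAM receptors summed to 145 ± 1.25 TPM in Normal (SD, n = 2), 166 ± 19.6 TPM in IC, 164 ± 19.0 TPM in IS and 153 ± 30.3 TPM in IS-HA (SD, n = 3 each). Within a sum of similar size, Tyro3 made up 77.1 ± 3.74% of the TAM receptor TPM in Normal but 44.9 ± 7.52% in IC, 40.2 ± 9.19% in IS and 44.9 ± 3.36% in IS-HA. Axl made up 14.9 ± 1.71% in Normal and 40.8 ± 6.61%, 41.5 ± 7.47% and 39.8 ± 1.74% in IC, IS and IS-HA. Mertk made up 7.94 ± 2.03% in Normal and 14.3 ± 1.10%, 18.3 ± 2.15% and 15.2 ± 2.65% in the same groups. In IC replicate 3 and IS replicate 4 the Axl share (48.3% and 50.1%) was above that of Tyro3 (36.5% and 29.7%). For all 3 receptors, the shares of each hemorrhage group and of Normal did not overlap (two-sided exact permutation test p = 0.1, adjusted p = 0.167 over 40 share tests), which is the smallest p that 3 against 2 rats allow.

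Gas6 made up 89.5 ± 0.913% (SD, n = 2) of the summed TPM of the ligands in Normal, 74.5 ± 2.86% in IC, 79.0 ± 1.01% in IS and 74.8 ± 2.45% in IS-HA (SD, n = 3 each), with Pros1 as the rest. The IS rats (78.3% to 80.1%) lay above the IC rats (71.2% to 76.6%) and above the IS-HA rats (72.4% to 77.3%). Both differences had an exact permutation p of 0.1, the smallest that 3 against 3 rats allow (adjusted p = 0.167), and the difference of 4.52 percentage points between IS and IC was 2.89 points without IC replicate 2.

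The summed scavenger receptors went from 6.29 ± 0.374 TPM in Normal (SD, n = 2) to 56.5 ± 17.0 TPM in IC, 105 ± 30.8 TPM in IS and 65.8 ± 16.0 TPM in IS-HA (SD, n = 3 each). Stab1 was the main member of this sum in Normal, at 68.2 ± 2.73%, and Msr1 a minor member at 5.37 ± 0.403%. In IC, IS and IS-HA, Stab1 made up 43.4 ± 2.07%, 43.9 ± 2.78% and 35.7 ± 2.46%, and Msr1 35.6 ± 2.83%, 30.2 ± 2.57% and 39.0 ± 4.57%. Between IS and IS-HA, the Stab1 share was lower by 8.16 percentage points in IS-HA and the Msr1 share higher by 8.81 points, without overlap of the rats (exact permutation p = 0.1 for both, adjusted p = 0.167). The Mrc1 share stayed between 19.9% and 26.3% in the group means, and Cd36 reached at most 2.85% in any rat.

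**Figure D3:**
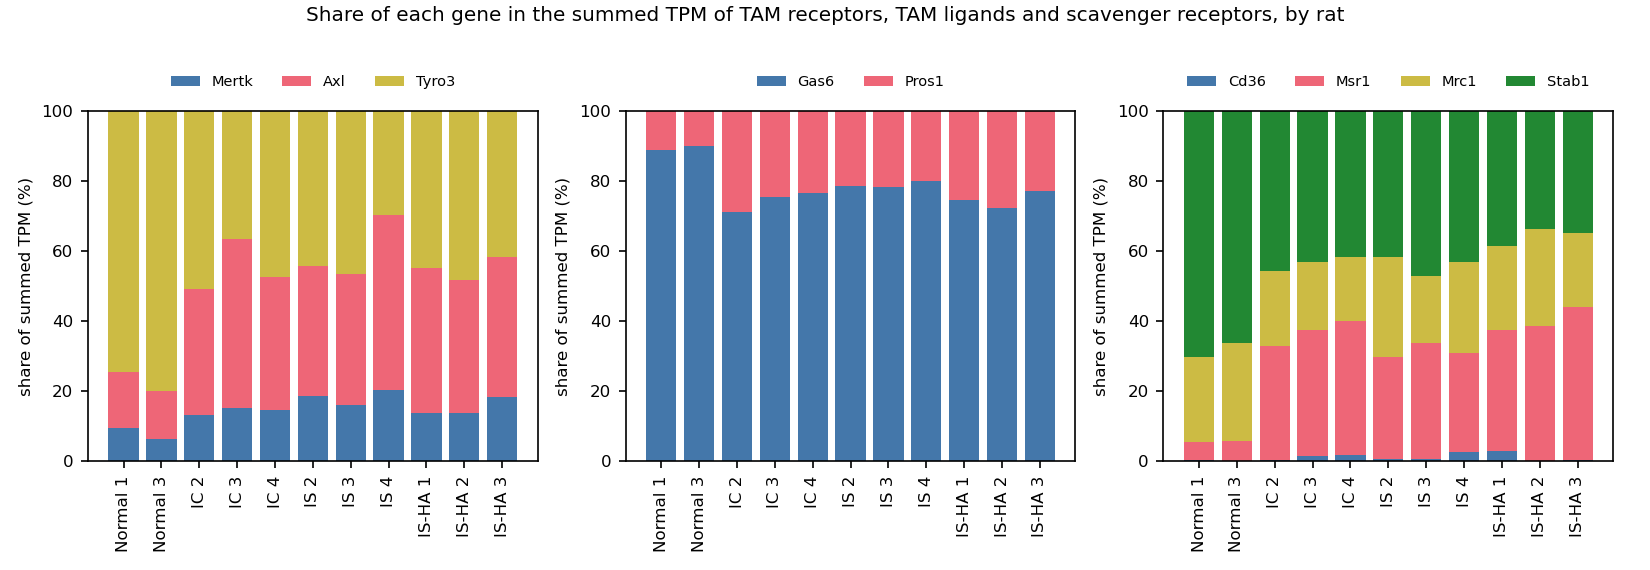
Share of each gene (vertical axis, percent of summed TPM) among the TAM receptors (left), the TAM ligands (middle) and the scavenger receptors (right) in each of the 11 rats. Tyro3 fills 74.5% and 79.8% of the TAM receptor bar in the Normal rats and 29.7% to 50.9% in the hemorrhage rats, and Msr1 goes from at most 5.65% of the scavenger receptor bar in Normal to at least 28.4% with hemorrhage.

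The whole list of 8 microglia and macrophage markers (Aif1, Csf1r, Itgam, Tyrobp, Ptprc, Spi1, Laptm5 and Fcer1g) was called higher in IS than in Normal, where 18.8% of all tested genes were. Its summed level was 124 to 162 TPM in Normal, 1064 to 1526 TPM in IC, 1850 to 3116 TPM in IS and 1334 to 2346 TPM in IS-HA. None of the 8 was at 0 counts in any group. Each member was therefore also expressed as its log2 CPM minus the mean log2 CPM of these markers. This is not a level per macrophage, since genes such as Tyro3 are carried by other cells too. Cd36 was left out because Normal held 1 count. Msr1 was the only one of the other 8 members that was higher relative to the markers in all 3 hemorrhage groups, by 2.06 in IC, 2.09 in IS and 2.20 in IS-HA on the log2 scale. Because each Normal rat gave only 5 Msr1 counts, the prior count of 2 used for log2 CPM made these values smaller. Mrc1 relative to the markers was at -0.53 in IC, below both Normal rats (-0.31 without Normal replicate 3), and at 0.03 in IS and -0.25 in IS-HA, where it overlapped Normal. Stab1 was at -0.74, -0.45 and -1.01, and Pros1 at -1.23, -1.75 and -1.35. Mertk lay between -2.14 and -2.43, Axl between -1.57 and -2.19, Gas6 between -2.76 and -2.91 and Tyro3 between -3.81 and -4.62. Of these differences from Normal, all except those of Mrc1 in IS and IS-HA had no overlap of the rats and the smallest exact permutation p of 0.1 (adjusted p = 0.154 over 40 tests). The markers themselves rose by a median log2 fold change of 3.22 in IC, 4.02 in IS and 3.64 in IS-HA. Any gene that rose clearly less lies below Normal on this scale, so values below 0 are not particular to the members. The share of all genes without overlap on this scale was not computed.

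Between the hemorrhage groups, Stab1 relative to the markers was higher in all IS rats than in all IC rats by 0.28 on the log2 scale, and lower in all IS-HA rats than in all IS rats by 0.56 (exact permutation p = 0.1 for both, adjusted p = 0.154). Without IS-HA replicate 2 the latter difference was -0.36. Axl relative to the markers was lower in all IS rats than in all IC rats (-0.62, exact permutation p = 0.1, adjusted p = 0.154). The log2 fold change of Axl itself in IS against IC was 0.06 ± 0.20 (SE). Pros1 relative to the markers stood at -0.51 in IS against IC, where the highest IS rat and the lowest IC rat were almost level, and at -0.22 without IS replicate 4 and -0.30 without IC replicate 2 (exact permutation p = 0.5 for both). Mrc1 relative to the markers was 0.56 higher in IS than in IC with overlap of the rats (exact permutation p = 0.2, adjusted p = 0.296). Msr1 relative to the markers was nearly level among the groups, with 0.03 between IS and IC and 0.11 between IS-HA and IS.

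**Figure D4:**
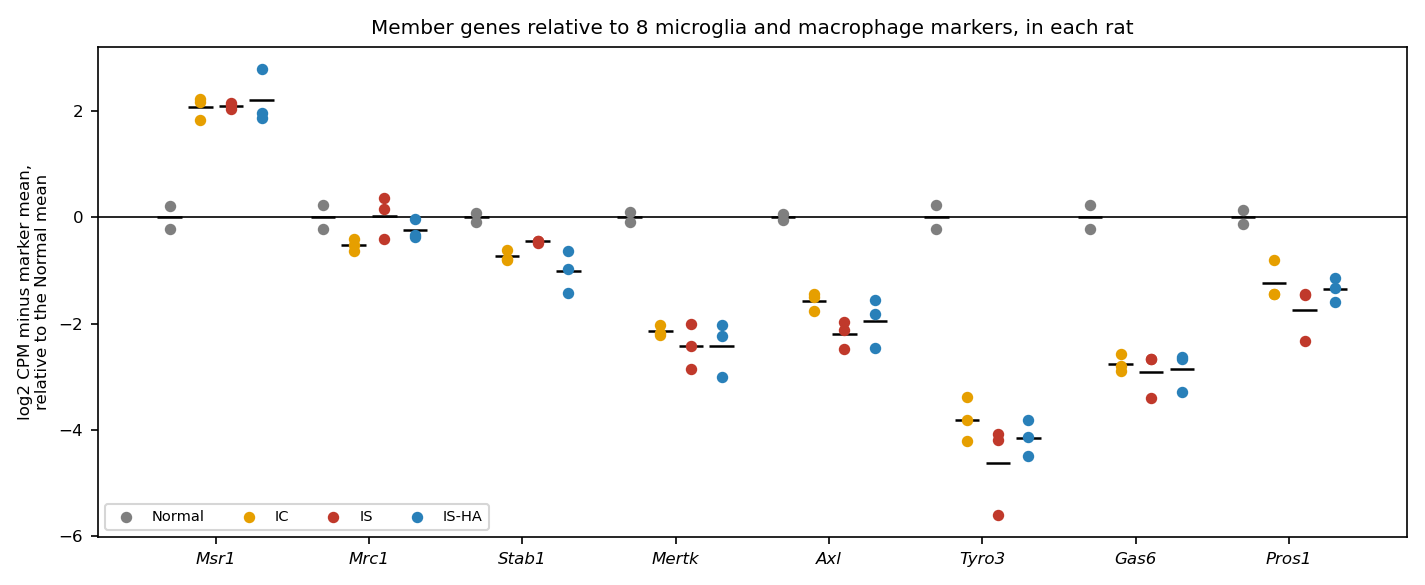
Log2 CPM of each of 8 genes minus the mean log2 CPM of 8 microglia and macrophage markers, set to 0 at the Normal mean (vertical axis), for each rat; bars are group means. Msr1 lies about 2.06 to 2.20 above Normal in the hemorrhage groups, Mrc1 lies at -0.53 to 0.03, and the TAM receptors and ligands lie below 0 in every hemorrhage rat. Any gene that rose clearly less than the markers lies below 0 on this scale.

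Markers of other myeloid cells were higher with hemorrhage as well. All 6 monocyte markers and all 6 border macrophage markers were called higher in IS than in Normal, where 18.8% of all tested genes were. The monocyte sum was 27.2 to 27.9 TPM in Normal, 288 to 573 TPM in IC, 628 to 786 TPM in IS and 297 to 874 TPM in IS-HA. The border macrophage sum was 13.4 to 14.4 TPM in Normal, 179 to 478 TPM in IC, 362 to 1220 TPM in IS and 222 to 478 TPM in IS-HA. The homeostatic microglia list gave 5 of 8 called higher in IS, and its sum moved less, from 133 to 154 TPM in Normal to 337 to 401 TPM in IC, 269 to 319 TPM in IS and 241 to 407 TPM in IS-HA. The neutrophil list gave 5 of 5 tested genes called higher in IS, with Camp and the homeostatic marker Siglech at 0 counts in Normal, and its sum was 4.91 to 5.11 TPM in Normal, 83.8 to 268 TPM in IC, 501 to 697 TPM in IS and 168 to 860 TPM in IS-HA. All 8 endothelial markers were detected and 1 was called higher in IS. Their sum was 123 to 172 TPM in Normal, 207 to 239 TPM in IC, 212 to 245 TPM in IS and 198 to 260 TPM in IS-HA. Of 6 mural and fibroblast markers, 4 were called higher and 1 lower in IS, beside 18.8% and 17% of all tested genes. Their median log2 fold change in IS was 1.60. Median log2 fold changes in IS against Normal were below 0 for astrocyte (-0.52), oligodendrocyte (-0.97), neuron (-1.54) and striatal neuron markers (-1.57). The 2 erythroid transcripts tested had a median of -0.59, and 0 were called. Which of these cells carried the members was not tested.

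The genes whose pattern over the 11 rats was most like each member were ranked by the root mean square difference of centred log2 CPM, as a description. For Msr1 they were RT1-Da, an MHC class II gene (0.31), and Cd14, the lipopolysaccharide coreceptor of macrophages (0.31). For Mrc1 they were Parvg (0.20) and Trpv2 (0.21), and for Stab1 Sbno2 (0.17) and C1h16orf54 (0.18). For Pros1 the nearest gene was Csf1r, the receptor for macrophage colony-stimulating factor (0.14), followed by Fgfrl1 (0.17). For Mertk they were Rassf3 (0.13) and Nfe2l2 (0.16), and for Axl Exo5 (0.15) and Akap13 (0.15). For Gas6 they were Mafk (0.07) and Mthfs (0.08), and for Tyro3 Sgsm3 (0.08) and Dcaf6 (0.10). Cd36 had no close match, with Cd300cl1 at 0.88 and LOC102550999 at 0.92. The values are small for genes that vary little, since the SD of log2 CPM over the rats was 0.34 for Gas6 and 2.30 for Msr1.

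Around the members, 77 other genes of the same uptake pathway were read as 6 lists, whose counts stand beside the 10.9%, 18.8% and 15.1% of all tested genes called higher in IC, IS and IS-HA and the 2.66%, 17% and 7.71% called lower. Among 16 other scavenger receptors, 6 were called higher in IC, 8 in IS and 6 in IS-HA against Normal (median log2 fold change 0.75, 1.04 and 0.65). The macrophage receptors led in IS: Cd68 by 6.92 ± 0.61 (SE, edgeR adjusted p = 3.64e-05), Cd14 by 6.68 ± 0.48, the oxidized lipoprotein receptor Olr1 by 5.50 ± 0.56 and Cxcl16 by 4.34 ± 0.27. Cd163, the receptor for hemoglobin and haptoglobin complexes, stood at 0.675 ± 0.108 TPM in Normal (SD, n = 2), 3.57 ± 1.52 TPM in IC, 13.4 ± 7.80 TPM in IS and 7.61 ± 5.28 TPM in IS-HA (SD, n = 3 each). It was called in all 3 comparisons with Normal (log2 fold change 2.35 ± 0.70, 4.34 ± 0.74 and 3.43 ± 0.72; edgeR adjusted p = 0.0411, 0.00109 and 0.00572). It was 1.99 ± 0.55 higher in IS than in IC (adjusted p = 0.148) and stood at -0.90 ± 0.53 in IS-HA against IS (adjusted p = 0.597). Cd163 was called in neither of these comparisons.

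The list of other receptors and bridges for apoptotic cells held 18 genes, of which 15 were tested. Of these, 9 were called higher in IC, 11 in IS and 9 in IS-HA, and Tub, a proposed bridging protein that is also a neuronal gene, was called lower in IS (-3.20 ± 0.63, SE, edgeR adjusted p = 0.00235). Lgals3 (galectin-3, a Mertk ligand) rose in IS by a log2 fold change of 8.64 ± 0.78 (edgeR adjusted p = 3.7e-05) and reached a mean of 1002 TPM from 2.56 TPM in Normal. Thbs1, the thrombospondin that bridges dying cells to Cd36 and integrins, rose by 6.43 ± 0.97 (adjusted p = 0.000549), and the complement component C1qb by 4.28 ± 0.47 (adjusted p = 9.95e-05). Havcr1 (TIM-1), a phosphatidylserine receptor, had 0 counts in Normal and 23 counts in the IS rats together, at least 8.55-fold higher when 3 counts are allowed over the Normal group. The median log2 fold change of the list was 2.83 in IC, 2.84 in IS and 2.88 in IS-HA, or 1.91, 2.84 and 1.81 with Havcr1 at its bound.

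Of 14 genes of the engulfment machinery, 4 were called higher in each hemorrhage group, and 2 were called lower in IS (Crk and Elmo1) and 1 in IS-HA (Elmo1), around a median log2 fold change of 0.19, 0.20 and 0.25. The share called lower in IS is near that of all genes. The hematopoietic forms rose in IS, with Rac2 at 5.00 ± 0.52 (SE, edgeR adjusted p = 7.68e-05), Vav1 at 4.73 ± 0.40 (adjusted p = 3.57e-05) and Dock2 at 3.96 ± 0.38 (adjusted p = 4.79e-05), whereas the adaptor Crk fell by 1.59 on the log2 scale (SE 0.54, adjusted p = 0.0313). Elmo1, which works with Dock proteins to activate Rac, fell by 1.56 in IS (SE 0.22, adjusted p = 0.000393) and by 1.04 in IS-HA (SE 0.22, adjusted p = 0.00619).

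Of 10 genes for eat-me and find-me signals, 1 was called higher and 1 lower in IC, 2 and 3 in IS, and 1 and 2 in IS-HA, and the median log2 fold change was -0.32, -0.79 and -0.46. The higher counts are near the shares of all genes. Xkr4, a scramblase of neural tissue, fell by 2.98 on the log2 scale in IS (SE 0.46, edgeR adjusted p = 0.000642), and fractalkine (Cx3cl1), a neuronal find-me signal, fell by 1.58 (SE 0.35, adjusted p = 0.00403). The scramblase Ano6 rose by 1.66 ± 0.27 (adjusted p = 0.000872) and the nucleotide receptor P2ry2 by 2.06 ± 0.53 (adjusted p = 0.00858).

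Of 7 genes for TAM receptor shedding, ligand activation and feedback, 2 were called higher in IC, 4 in IS and 3 in IS-HA, and their median log2 fold change was 1.00, 1.49 and 1.03. The suppressor of cytokine signaling Socs3, which TAM receptors are known to induce, rose in IS by 6.57 ± 0.48 (SE, edgeR adjusted p = 3.13e-05) and Socs1 by 2.18 ± 0.50 (adjusted p = 0.00496). Twist1, a repressor known to act downstream of Axl, rose by 2.40 ± 0.64 (adjusted p = 0.0107). The sheddase Adam17, which cuts Mertk from the cell surface, rose by 1.49 ± 0.23 (adjusted p = 0.000598), while Adam10 stood at 0.21 ± 0.38 (adjusted p = 0.672).

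Of 12 nuclear receptors and regulators of efferocytosis genes, 10 were tested, and 4, 6 and 5 were called higher and 1 lower in IC, IS and IS-HA (median log2 fold change 0.97, 1.33 and 1.04). The receptor chain Il4r rose in IS by 4.37 ± 0.37 (SE, edgeR adjusted p = 3.57e-05) and Stat6 by 3.48 ± 0.92 (adjusted p = 0.0101). The liver X receptor Nr1h3, which is known to raise Mertk, rose by 2.28 ± 0.43 (adjusted p = 0.00172). Nr4a1, an immediate early gene of neurons and of patrolling monocytes, fell by 2.93 on the log2 scale (SE 0.27, adjusted p = 3.82e-05). By edgeR, 0 of the genes of these 6 lists were called in IS against IC or in IS-HA against IS, where 0% and 0.00635% of all genes were called. At an unadjusted p under 0.05, 25 of the 72 tested genes differed in IS against IC, 20 of them higher, beside 10.5% of all genes higher and 11.7% lower. In IS-HA against IS, 10 differed, 3 of them higher, beside 5.58% higher and 3.36% lower. DESeq2 called 6 of the 72 in IS against IC, beside 1.63% of all genes higher and 2.2% lower, and 0 in IS-HA against IS, beside 0.28% and 0.121%.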

How the data were processed

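Striatal RNA of 11 rats was read from poly(A) libraries sequenced as paired reads of 150 bases. The deposited table gives raw counts of reads for each gene, made by the authors without normalization, and TPM, in which the authors divided by gene length and scaled every rat to the same sum. The submitters' processing notes name fastp 0.20.0, FastQC 0.11.9, HISAT2 2.1.0, SAMtools 1.9, featureCounts, DESeq2 and rat build mRatBN7.2. The strand setting and the annotation version are not given in the sources used here. Counting without strand would join reads of a gene and of an antisense partner.

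All 22 columns carried a library name that the labels give to a single rat, and 0 pairs of libraries held identical values. Depth was 6701301 to 18817645 counts per rat, at which 3 counts are 0.448 to 0.159 CPM. Since PCR copies were not told apart from separate molecules, floors and intervals cover counting error only.

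Counts were filtered with filterByExpr, scaled by TMM and tested with edgeR 4.0.16 (R 4.3.3) in a single quasi-likelihood fit of the 4 groups, with Benjamini-Hochberg adjustment over 15742 genes. SE was taken as the size of the log2 fold change over the root of F. Log2 CPM used a prior count of 2. For shares and levels relative to markers, exact permutation tests (two-sided) were run in Python 3.11.15. The test was checked on simulated data, in which changes of the size of the fold cutoff were mostly missed and changes of 2 on the log2 scale mostly recovered. Far fewer genes were changed there than were called here in IS against Normal, and the adjusted p alone was used. The simulation therefore does not give the sensitivity of the calls reported here. Alternatives were DESeq2 1.42.0, limma 3.58.1 with trend on log2(TPM + 1), DESeq2 size factors, library size alone, other filters, a fit of the compared groups alone, omission of each rat, the replicate number as a block, no fold cutoff, shares of counts and a set of 4 markers.

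Promoters come from RefSeq on build GRCr8, which is not the build of the counts. No promoter entry was found for Msr1, and protein sequences were not used here. The genes, lists, tests and alternatives were chosen with earlier results of these data known. Genes named from a list are up to 4 with the largest change in IS against Normal among those called, plus Cd163, and 1 gene so chosen is not reported here. Tub, Nr1h3, Adam10, Elmo1, Camp, Drd1, Drd2 and Ppp1r1b were named beyond that rule after their values were seen.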

Additional observations from a re-analysis of the deposited data

How the results depend on the processing

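Of the recomputed values, 195 of 200 counts of members stayed within 1.5 times, and 806 of 845 log2 fold changes, 234 of 256 shares and 239 of 256 levels relative to markers kept their direction and their side of the threshold. The cause of the other changes was not tested. Most counts of members were 0 in the main fit and had little room to move. The rule of 1.5 times also lets pass a move from 5 to 7 members called higher in IC without IC replicate 2. Members called higher against Normal numbered 4 to 6 in IC, 5 to 8 in IS and 4 to 7 in IS-HA under the settings that kept all rats. Counts moved from 0 to 1 lower in IS and in IS-HA against Normal with the adjusted p alone (Tyro3), from 0 to 2 higher in IS against IC and from 0 to 1 lower in IS-HA against IS with DESeq2's Wald test, and between 0 and 1 higher in IS against IC when a rat was left out, where the count of 1 came without IS-HA replicate 2. The requirement of 10 counts in every rat removed Msr1 and Cd36 from the test.

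Calls other than those given in the report moved as follows. With library size alone, Mertk passed in IC (1.12) and IS-HA (1.12) and Gas6 in IS (1.06) against Normal. DESeq2 called Cd36 in IC (6.07) and IS-HA (5.89), the fit of the compared groups alone called it in IC (5.77), and the fit without a filter called it in IS-HA (5.64). With limma, Mertk passed in IC (1.00). Same-numbered rats are different animals, and the correlation of their deviations from the group means ran from -0.48 to 0.36, with 2 of 11 pairs above 0.1. With the replicate number as a block, the members called higher against Normal were 6 in IC, 7 in IS and 7 in IS-HA, Cd36 passed in IC and IS-HA, Mertk in IS-HA (1.08), and Tyro3 in IS-HA against IS turned to -0.0852.

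Signs changed in comparisons between hemorrhage groups and, for Mrc1, against Normal. Tyro3 in IS-HA against IS was -0.00674 with DESeq2 size factors and -0.00726 with DESeq2. With a rat left out, log2 fold changes ran from -0.33 to 1.70 for Cd36 in IS against IC, -3.20 to 0.27 for Cd36 in IS-HA against IS, -0.0703 to 0.27 for Axl and -0.20 to 0.11 for Tyro3 in IS against IC, and -0.18 to 0.13 for Tyro3 and -0.0877 to 0.0105 for Pros1 in IS-HA against IS. With shares of counts in place of TPM, the Mrc1 share was 3.69 points higher in IS and 5.67 points higher in IS-HA than in Normal and 1.99 points higher in IS-HA than in IS, and the Stab1 share in IS against IC was -1.55 points. With a rat left out, share differences in points ran from -3.60 to 4.49 (Axl) and -8.94 to 0.54 (Tyro3) in IS against IC, and -3.90 to 2.68 (Axl) and -0.50 to 7.98 (Tyro3) in IS-HA against IS. They ran from -0.52 to 0.51 (Cd36) and -1.05 to 1.66 (Stab1) in IS against IC, -1.06 to 0.46 (Cd36) and -3.08 to 1.52 (Mrc1) in IS-HA against IS, and -3.71 to 0.89 (Mrc1) in IS against Normal. Relative to Aif1, Csf1r, Itgam and Tyrobp alone, the difference in IS-HA against IS was -0.00843 for Msr1, -0.10 for Mertk and -0.0608 for Gas6, and in IS against IC 0.0516 for Gas6. With a rat left out, levels relative to the 8 markers ran from -0.0917 to 0.10 (Msr1) and -0.28 to 0.0872 (Gas6) in IS against IC, -0.18 to 0.28 (Msr1), -0.20 to 0.31 (Mertk), -0.0195 to 0.74 (Tyro3) and -0.19 to 0.26 (Gas6) in IS-HA against IS, and -0.19 to 0.25 (Mrc1) in IS against Normal. Groups of 3 rats and a Normal group of 2 limit the exact tests to p = 0.1, and Cd36 and Msr1 rest on at most 5 counts per Normal rat.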
